A study of Mus musculus with 40 samples.

Results

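The miR-29 family in the mouse consists of 4 hairpins, mir-29a, mir-29b-1, mir-29b-2 and mir-29c, which give 7 named mature miRNAs: the 3p arms mmu-miR-29a-3p, mmu-miR-29b-3p and mmu-miR-29c-3p, and the 5p arms mmu-miR-29a-5p, mmu-miR-29b-1-5p, mmu-miR-29b-2-5p and mmu-miR-29c-5p (written without mmu from here on). All 7 were taken by name from 1978 mature miRNAs that were counted in small RNA sequencing of the hippocampal CA1 region. The family was selected on changes of opposite sign in its 5p and 3p arms. The comparison behind that choice is not named and was taken to be 3 against 6 months of age in transgenic mice. Values of that comparison are therefore a description: where a member is said to be called there, this marks only which side of a threshold it fell on and supports nothing. The choice was also known when the other comparisons were made, so their p-values are not free of it. The transgene was CamKIIδC, which makes the mice a model of heart failure, and the non-transgenic animals were wild-type control mice. Groups were 5 wild-type and 9 CamKIIδC TG mice at 3 months and 15 wild-type and 11 TG mice at 6 months, each library from 1 mouse as titled. The mice were transgenic animals and their littermates on a C57Bl/6J background, of both sexes. The promoter that drives the transgene was not given in the sources used here. Wild-type mice 1 and 2 of the 3-month group carried TG in their genotype field, against their titles, and were kept as wild-type here.

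A miRNA hairpin is cut by Drosha and Dicer into a short duplex, and 1 strand of it is loaded into an Argonaute protein while the other is usually lost. The 3 miR-29 3p arms share a seed, the stretch that pairs with target mRNAs, and are known to repress collagens and other matrix genes, the DNA methyltransferases Dnmt3a and Dnmt3b, Bace1 and pro-apoptotic BH3-only genes. In the brain they are known to rise as neurons mature. The 5p arms carry other seeds and are mostly regarded as passenger strands. Since the tissue was bulk CA1, fewer cells of a type and less RNA per cell cannot be told apart.

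The mature sequences are shown because they separate the family into 1 group with a common seed and 4 arms without it (RefSeq, GRCm38.p6, bases 2 to 8 in capitals).
miR-29a-3p: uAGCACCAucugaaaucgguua
miR-29b-3p: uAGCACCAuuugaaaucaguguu
miR-29c-3p: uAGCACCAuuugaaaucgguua
miR-29a-5p: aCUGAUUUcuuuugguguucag
miR-29b-1-5p: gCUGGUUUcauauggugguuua
miR-29b-2-5p: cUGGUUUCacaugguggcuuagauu
miR-29c-5p: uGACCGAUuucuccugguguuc

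Among 1679 mature miRNAs with a sequence, the seed AGCACCA occurred in miR-29a-3p, miR-29b-3p and miR-29c-3p alone, and the seeds of miR-29a-5p, miR-29b-1-5p and miR-29c-5p occurred in no other entry. The seed of miR-29b-2-5p was shared with miR-6338. Counted from the 5′ end, miR-29a-3p and miR-29c-3p differ by the substitution C10U alone, so reads with an error at that base could pass from one to the other, which was not tested. From miR-29a-3p to miR-29b-3p the substitutions are C10U, G18A, U21G and A22U. The last of these give miR-29b-3p the end AGUGUU at bases 18 to 23, a sequence known as a nuclear import signal of miR-29b. It was found in 12 of the 1679 sequences (0.715%).

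In GRCm38 the hairpins lie in 2 clusters. Mir29a (ENSMUSG00000065610.1, chr6:31062660-31062747, minus strand) was intergenic. Mir29b-1 (ENSMUSG00000065604.2, chr6:31063023-31063093, minus strand) overlapped, at its edge only, an exon of the lincRNA Gm27019, which spans chr6:31063092-31063495. Mir29b-2 (ENSMUSG00000065412.3, chr1:195037040-195037120) and Mir29c (ENSMUSG00000065548.1, chr1:195037547-195037634) are on the plus strand within an exon of A330023F24Rik, with an exon of Cd46 on the opposite strand. The 3p arms of mir-29b-1 and mir-29b-2 are identical, so miR-29b-3p is 1 measurement for both hairpins. Its counts on both hairpins differed by at most 0.131% and were identical in 14 of 40 libraries.

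Library totals ranged from 2656368 to 36547011 counts, with medians of 22455957 and 29499287 in the 3-month wild-type and TG mice and 14908612 and 13894826 in the 6-month wild-type and TG mice. The 6-month groups thus had the shallower libraries in both genotypes. The miR-29 family took 0.308% to 2.31% of the miRNA counts of a library. No pair of libraries of a group agreed within sampling noise. Among the cell type markers, the neuronal miRNAs were abundant in every library, whereas the heart muscle miRNAs summed to 1.56 to 20.6 CPM, the usual abbreviation for counts relative to the scaled library total.

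Before the comparisons, 6 libraries have to be set apart. They held 29499287 to 36547011 counts against 2656368 to 25728981 in the other 34, and were those of TG mice 4, 5, 6, 7 and 9 and wild-type mouse 2, all 3 months old. The boundary of 28000000 counts falls in the gap between these ranges and was set after the values were seen. In these 6 libraries miR-29c-3p was at 114 to 184 CPM, compared with 20.9 to 103.9 CPM in the other 34. The sets did not overlap, as was the case for 7.44% of 699 miRNAs (2.86% with the 6 higher). Its partner miR-29c-5p was at 34.7 to 40.9 CPM in the 6 libraries and at 32.2 to 108.9 CPM in the others, so the mir-29c arm ratio, log2(5p/3p), was −2.23 to −1.65 against −0.74 to 2.06. This too left no overlap, as for 10.5% of 228 hairpins (5.7% with the 6 lower). miR-29a-3p (11425 to 15787 against 4710 to 11847 CPM) and miR-29b-3p (1191 to 2527 against 122 to 1426 CPM) were also high, with 2 of the 34 other libraries reaching into the range of the 6 for each.

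Set against the 4 other 3-month TG libraries, the 5 TG libraries over 28000000 counts had medians higher by 2.07 (log2) for miR-29c-3p, 1.58 for miR-29b-2-5p, 1.33 for miR-29b-3p, 1.06 for miR-29a-3p, 0.68 for miR-29a-5p and 0.64 for miR-29b-1-5p, and lower by −0.19 for miR-29c-5p. Other values moved with these libraries. Over 599 miRNAs with a sequence, the same difference had a median of 0.64 for 145 miRNAs with at most 41% GC and −0.38 for 311 with at least 50% GC. GC content was 34.8% in miR-29b-3p, 36.4% in miR-29c-3p and miR-29a-5p, 40.9% in miR-29a-3p and miR-29b-1-5p, 44.0% in miR-29b-2-5p and 50% in miR-29c-5p. The summed microglia and white blood cell markers (all 3 detected) were at 60.9 to 95.7 CPM in the 6 libraries and 11.7 to 52.4 CPM in the other 8 of 3 months. At 6 months this sum reached 78.9 CPM in TG and 67.9 CPM in wild-type mice, within the range of the 6. The sums of the neuron, red blood cell, blood vessel, choroid plexus and heart muscle markers overlapped between the 6 and the other 8. The oligodendrocyte markers (all 3 detected) were at 1515 to 2843 against 1112 to 1790 CPM, and the spike-ins at 0.0851% to 0.118% against 0.112% to 0.227% of the total. The part of base composition and of these cell types in the miR-29 values was not tested. Because 5 of the 6 libraries are of one group, depth and group cannot be told apart, and the age, genotype and interaction values below are given with and without them.

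**Figure D1:**
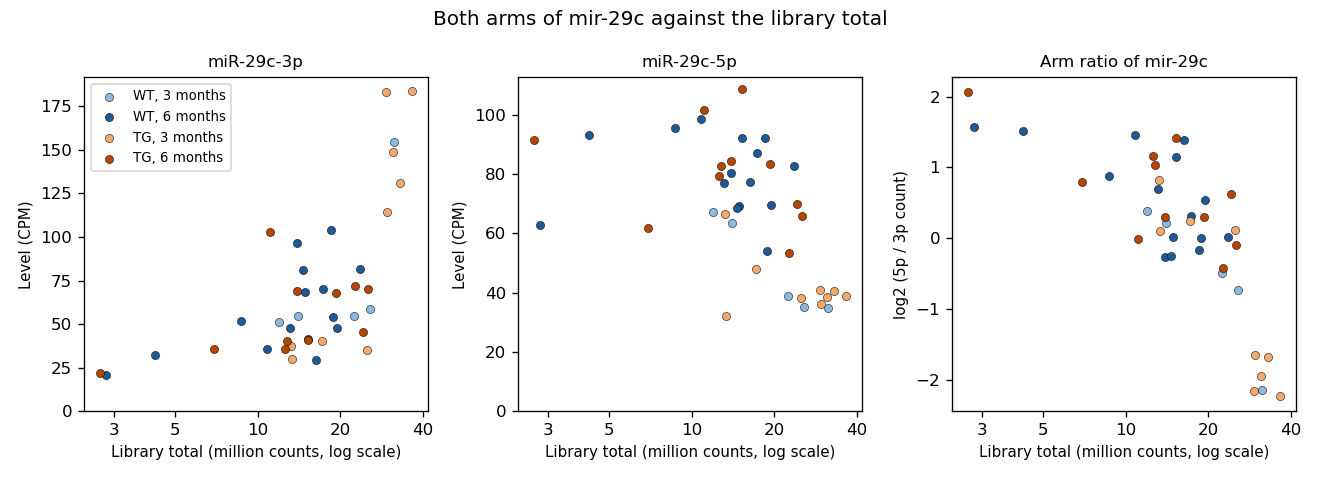
Levels of miR-29c-3p and miR-29c-5p (CPM) and the mir-29c arm ratio, log2(5p/3p), in each library against its total count, coloured by group. The 6 libraries over 28000000 counts hold the highest miR-29c-3p levels, 114 to 184 CPM, and the lowest arm ratios, −2.23 to −1.65.

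A relation to depth was also seen without those 6 libraries. Over the other 34, with each group's mean subtracted, the mir-29c arm ratio fell with the log2 library total (Pearson's r = −0.69, Spearman's rho = −0.59, permutation test within groups, adjusted p = 0.000253 and 0.00365 over 228 hairpins, r = −0.57 without the 2 libraries farthest from the median depth). miR-29c-3p rose with it (r = 0.65, rho = 0.48, permutation adjusted p = 0.000764 and 0.0218 over 699 miRNAs, r = 0.42 without those 2). For miR-29a-3p (r = 0.57, rho = 0.31, permutation adjusted p = 0.00398 and 0.135) and miR-29b-3p (r = 0.52, rho = 0.27, permutation adjusted p = 0.00747 and 0.198), r dropped to 0.31 and 0.24 without the 2 farthest libraries, so that the relation rested on them. miR-29c-5p was lower in deeper libraries by rank (r = −0.25, rho = −0.42, permutation adjusted p = 0.187 and 0.0483). The family was not particular in this, as Pearson's r had an adjusted p under 0.05 in 61.7% of miRNAs and 52.2% of arm ratios.

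The 7 members differed widely in level. miR-29a-3p was the 19th of 699 miRNAs by mean level (8928 CPM over the 40 libraries) and made up a median of 90.9% of the family's counts, from 84.0% to 95.6%. miR-29b-3p followed at 866.6 CPM and 7.63%. miR-29c-3p (68.5 CPM, 0.609%) and miR-29c-5p (67.6 CPM, 0.725%) had similar means over all libraries but not within groups: the 3p arm was the higher at 3 months (100.4 against 42.3 CPM in TG and 74.8 against 47.8 CPM in wild-type mice) and the 5p arm at 6 months (80.3 against 54.6 CPM and 80.1 against 57.6 CPM). miR-29b-2-5p (10.2 CPM), miR-29a-5p (8.07 CPM) and miR-29b-1-5p (2.03 CPM) came last. The lowest counts behind these were 2 for miR-29b-1-5p, 5 for miR-29b-2-5p and 6 for miR-29a-5p, which limits what can be read from single libraries for these 3 arms. The reads carried no molecular identifiers, so intervals on counts cover counting error only.

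**Figure D2:**
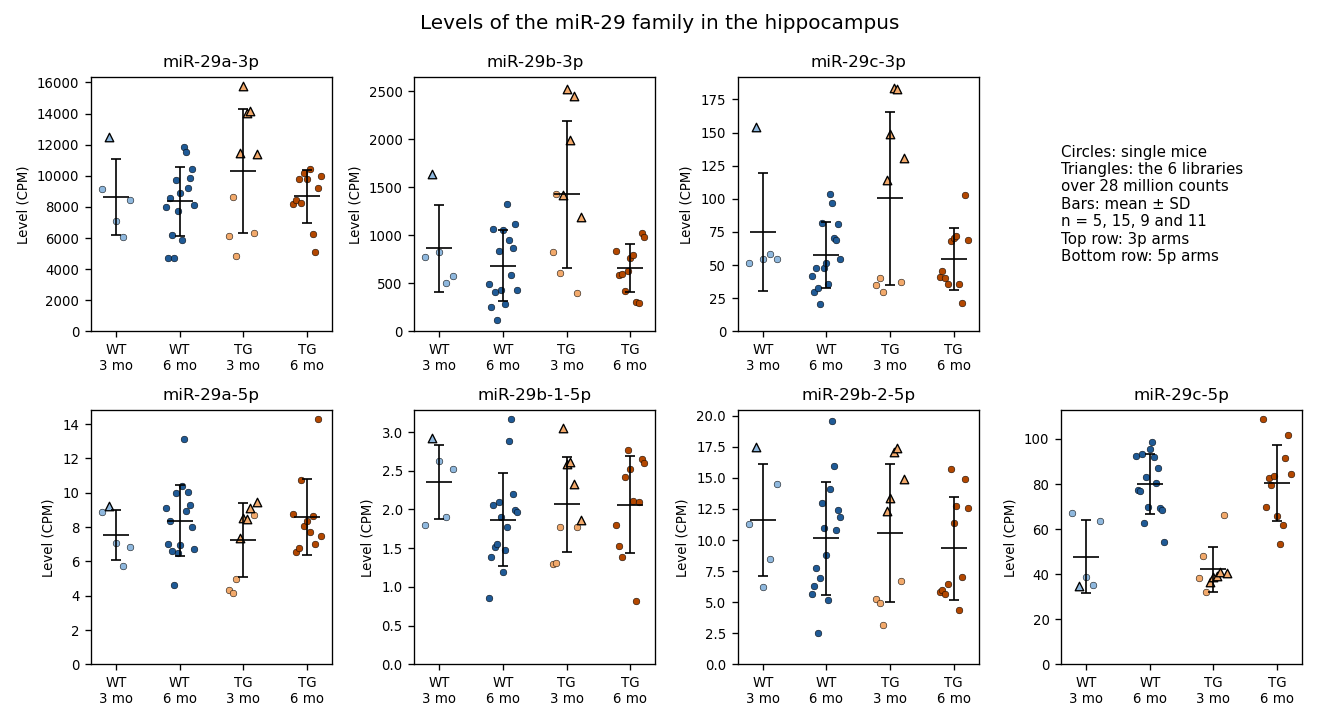
Level of each miR-29 member in CPM in every mouse by group (WT and TG at 3 and 6 months, n = 5, 15, 9 and 11), 3p arms above and 5p arms below, with bars for mean ± SD and triangles for the 6 libraries over 28000000 counts. In the 3p panels the triangles lie above the other mice of their group, except that 1 other TG mouse at 1426 CPM reaches into their range for miR-29b-3p, whereas for miR-29c-5p the 6-month mice stand above most 3-month mice.

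The first question was how the 3p arms differed with age in the TG group. miR-29b-3p was at 1426 ± 769 CPM (SD, n = 9) at 3 months, with a lowest, median and highest value of 396, 1419 and 2527 CPM. At 6 months it was at 660 ± 250 CPM (SD, n = 11), with 301, 632 and 1025 CPM. All 11 of the 6-month mice were below the 3-month mean, but the groups overlapped. Its log2FC was −1.10 (SE 0.30) and it was called, meaning an adjusted p under 0.05 by edgeR with an absolute log2FC above 0.26. miR-29c-3p was at 29.8, 114 and 184 CPM (lowest, median, highest) at 3 months and at 21.7, 45.3 and 103 CPM at 6 months, a log2FC of −0.87 (SE 0.35) that was not called by edgeR but was by DESeq2 (−0.94). Its 3-month values fell into 2 sets, 29.8 to 40.5 CPM in 4 mice and 114 to 184 CPM in the 5 libraries over 28000000 counts. The most abundant member, miR-29a-3p, was at 4862, 11425 and 15787 CPM at 3 months and 5076, 9227 and 10425 CPM at 6 months, with a log2FC of −0.24 (SE 0.20), also not called.

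The signs of the 3p arms depended on the libraries over 28000000 counts. Without them, 4 TG mice of 3 months were left and the log2FC with age became 0.64 (SE 0.31) for miR-29c-3p, 0.44 (SE 0.21) for miR-29a-3p and −0.27 (SE 0.32) for miR-29b-3p, none of them called. Among libraries of 10000000 to 28000000 counts (4 against 9 mice), miR-29c-3p at 0.77 (SE 0.27) and miR-29a-3p at 0.54 (SE 0.19) were called as higher at 6 months, and miR-29b-3p was at −0.11 (SE 0.28). Of the 3 arms, 2 thus changed direction, and the call of miR-29b-3p was lost. As another value moving with age in TG mice, 2 of the 3 oligodendrocyte markers were called lower at 6 months (median log2FC of the 3, −1.02) and 2 of the 3 choroid plexus markers higher (median 0.89). None of the 3 microglia and white blood cell markers was called. Of 4 markers each, 1 neuronal and 1 blood vessel marker were called higher, and 1 red blood cell marker higher and 1 lower. No heart muscle marker was called. These marker calls are from all TG libraries, where 15.7% of 629 miRNAs were called. The part of these cell types in the miR-29 values was not tested.

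Among the 5p arms in TG mice, miR-29c-5p stood out in size. It was at 32.2, 39.0 and 66.4 CPM (lowest, median, highest) at 3 months, a mean of 42.3 ± 10.0 CPM (SD, n = 9), and at 53.3, 82.9 and 109 CPM at 6 months, a mean of 80.3 ± 16.8 CPM (SD, n = 11). All 11 mice of 6 months were above the 3-month mean and 8 of them above the highest 3-month mouse, so the groups overlapped in few animals. The log2FC was 0.94 (SE 0.16), a 1.92-fold higher level, the 18th highest of 629 miRNAs, and was called. It was also called without the libraries over 28000000 counts (0.81, SE 0.24) and in libraries of 10000000 to 28000000 counts (0.82, SE 0.25).

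The other 5p arms in TG mice were not called. miR-29a-5p ranged from 4.16 to 9.48 CPM at 3 months and from 6.53 to 14.3 CPM at 6 months (log2FC 0.26, SE 0.20). miR-29b-1-5p ranged from 1.30 to 3.05 CPM and from 0.81 to 2.77 CPM (log2FC 0.01, SE 0.22), and miR-29b-2-5p from 3.20 to 17.4 CPM and from 4.34 to 15.7 CPM (log2FC −0.17, SE 0.31). Without the libraries over 28000000 counts their log2FC were 0.66 (SE 0.26), 0.50 (SE 0.30) and 0.93 (SE 0.35), not called, and miR-29b-2-5p was called at 1.03 (SE 0.34) in libraries of 10000000 to 28000000 counts.

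Over all members, 2 of 7 were called in TG mice, 1 in each direction, where 15.7% of 629 miRNAs were called (7.47% higher and 8.27% lower, median log2FC of all −0.09). Without the libraries over 28000000 counts 1 of 7 was called against 15.1% of 623 miRNAs, and in libraries of 10000000 to 28000000 counts 4 of 7, all higher, against 28.5% of 629. In these 3 sets no hairpin had both arms called in opposite directions. Both arms of mir-29c were so called with DESeq2 (−0.94 for the 3p and 0.89 for the 5p arm), where 142 of 629 miRNAs were called. The same held with residual factors in edgeR or DESeq2, where 297 and 321 of 629 were called. It also held in edgeR without TG mouse 3 of 3 months (−0.99 and 0.90), a fit whose total of calls is not given here. All of these settings keep the 5 TG libraries over 28000000 counts. The arms differed in the sign of their log2FC in mir-29a, mir-29b-1 and mir-29c in all libraries. Opposite signs were common in general, at 44.9% of 205 hairpins.

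**Figure D3:**
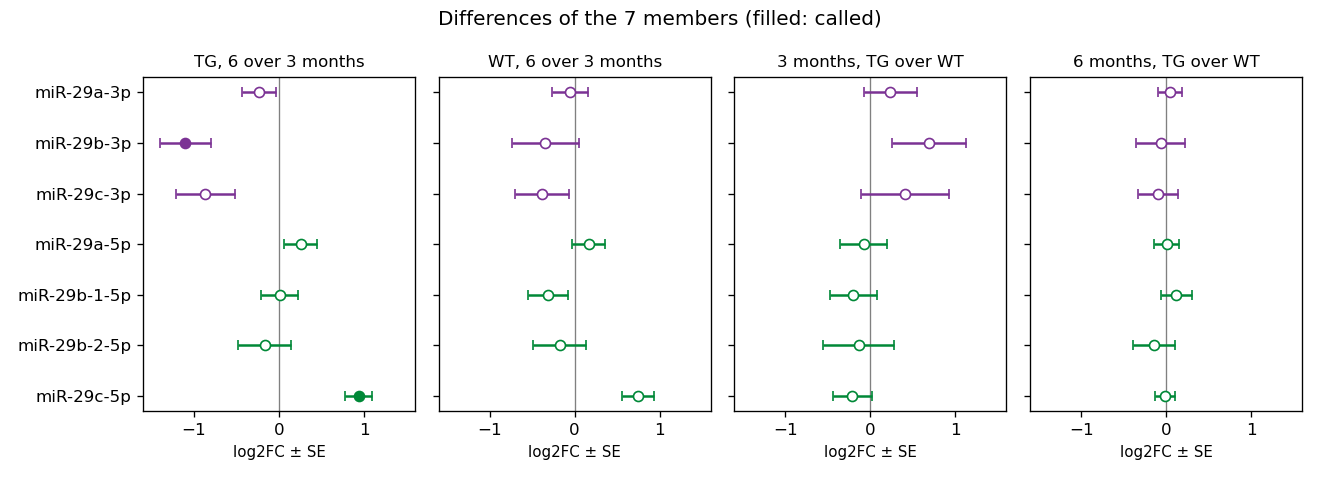
Log2FC of each miR-29 member with bars for ± 1 SE (filled points were called) for age in TG mice, age in wild-type mice and genotype at 3 and 6 months. miR-29c-5p is above 0 with age in both genotypes (0.94 and 0.74), miR-29b-3p is at −1.10 with age in TG mice, and the values for genotype at 6 months lie between −0.14 and 0.12.

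The ratio of the arms within a library does not depend on the library size used for scaling. In 3 hairpins the 3p arm held nearly all reads: the median share of 5p reads over the 40 libraries was 0.0894% in mir-29a, 0.261% in mir-29b-1 and 1.25% in mir-29b-2. mir-29c was mixed, with a 5p share of 17.5% (95% Wilson interval 16.7% to 18.4%) to 80.9% (74.1% to 86.2%) and more 5p than 3p reads in 25 of 40 libraries. In TG mice the median 5p share of mir-29c was 24.1% at 3 months (17.5% to 63.9%, more 5p in 4 of 9 mice) and 60.7% at 6 months (42.7% to 80.9%, more 5p in 8 of 11). In wild-type mice it was 41.6% at 3 months (18.4% to 56.6%, more 5p in 2 of 5) and 59.2% at 6 months (45.5% to 75.0%, more 5p in 11 of 15). The groups overlapped in each genotype. In the 4 TG mice of 3 months under 28000000 counts the arm ratio log2(5p/3p) was 0.11 to 0.83, that is more 5p in each, and in the 4 such wild-type mice −0.74 to 0.38. A hairpin whose more abundant arm changed between libraries was not rare, at 65 of 228 hairpins (28.5%), though 10 or more libraries on each side were seen in 16 (7.02%), mir-29c among them.

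Between 3 and 6 months in TG mice, the arm ratio log2(5p/3p) of mir-29c was higher by 1.58 (SE 0.42), that of mir-29b-1 by 1.01 (SE 0.30), that of mir-29b-2 by 0.91 (SE 0.27) and that of mir-29a by 0.45 (SE 0.22). The first 3 were called by limma (adjusted p under 0.05), where 16.1% of 205 hairpins were called, 11.7% toward the 5p and 4.39% toward the 3p arm. The rises of mir-29b-1 and mir-29b-2 share the same 3p counts and are not separate evidence. All 11 of the 6-month TG mice had a mir-29c ratio above the 3-month mean, and 4 were above the highest 3-month mouse. Without the libraries over 28000000 counts the differences were 0.32 (SE 0.38) for mir-29c, 0.63 (SE 0.40) for mir-29b-1, 1.06 (SE 0.38) for mir-29b-2 and 0.24 (SE 0.31) for mir-29a, and none was called, against 11.0% of 200 hairpins. In libraries of 10000000 to 28000000 counts mir-29c was at 0.15 (SE 0.33) and again none was called, against 23.4% of 201. Of single mice, leaving out TG mouse 2 or 5 of 3 months left mir-29c as the only miR-29 hairpin called. Leaving out mouse 7 ended the call of mir-29b-1. The share of all hairpins called in these fits is not given here.

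**Figure D4:**
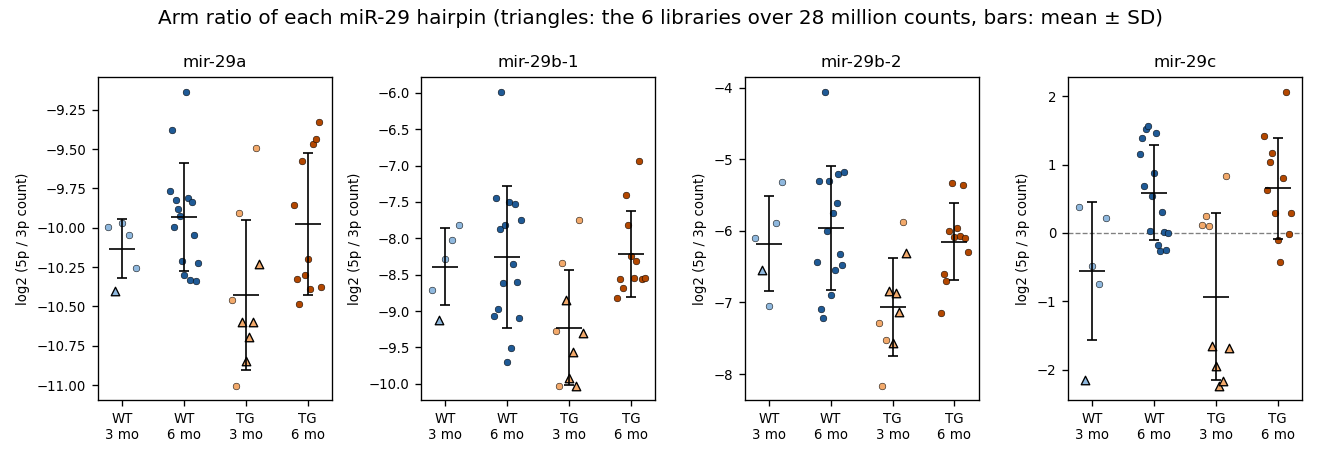
Arm ratio log2(5p/3p) of the 4 miR-29 hairpins in every mouse by group, with bars for mean ± SD and triangles for the 6 libraries over 28000000 counts. Only mir-29c crosses 0, the line of equal arms, and its triangles lie at −2.23 to −1.65, below all other libraries.

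Mice titled as wild-type controls gave the same age comparison without the libraries titled transgenic. Mice 1 and 2 of 3 months, with TG in their genotype field, are among them. miR-29c-5p was at 67.1, 34.7, 38.8, 35.0 and 63.6 CPM in wild-type mice 1 to 5 of 3 months, and at 54.2, 80.5 and 98.5 CPM (lowest, median, highest) in the 15 mice of 6 months. Mice 2, 3 and 4 were low and mice 1 and 5 within the 6-month range. The low mice 2, 3 and 4 had totals of 31304284, 22455957 and 25728981 counts. Mice 1 and 5 had 12006095 and 14052092, near the 6-month wild-type median of 14908612. Among these 5 mice the split thus followed depth. The deepest 6-month wild-type library, mouse 6 with 23566241 counts, was at 82.9 CPM. Depth overlapped only in part between the ages, and its part in the age difference was not tested on its own. All 15 of the 6-month mice were above the 3-month mean (47.8 ± 16.1 CPM, SD, n = 5) and 13 above the highest 3-month mouse. The log2FC was 0.74 (SE 0.19, 95% interval 0.35 to 1.13), a 1.67-fold higher level, which was second of 660 miRNAs by p and did not pass the adjustment (edgeR, p = 0.000676, adjusted p = 0.179). DESeq2 called it (log2FC 0.74, adjusted p = 0.00278). Over 23 alternatives, among them mice 1 and 2 left out and the library total as a covariate, its sign was kept (log2FC 0.62 to 0.88). Adjusted p ranged from 1.68e-06 to 0.617 by edgeR, DESeq2 or limma. Without wild-type mouse 2, the single wild-type library over 28000000 counts, the log2FC was 0.65 (SE 0.20, edgeR adjusted p = 0.406).

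No 3p arm passed the test with age in wild-type mice. miR-29c-3p was at 51.5, 154, 54.5, 58.5 and 54.9 CPM in mice 1 to 5 of 3 months and at 20.9, 51.8 and 104 CPM (lowest, median, highest) at 6 months. Mouse 2 stood apart from the other 4. The log2FC was −0.38 (SE 0.32, edgeR adjusted p = 0.573), and 0.07 (SE 0.32, edgeR adjusted p = 0.992) without that mouse. miR-29b-3p was at 778, 1638, 832, 503 and 578 CPM at 3 months and at 122, 591 and 1323 CPM at 6 months (log2FC −0.35, SE 0.39, edgeR adjusted p = 0.694, or 0.03 without mouse 2). For miR-29a-3p the 3-month values were 9129, 12474, 7106, 6088 and 8417 CPM and those of 6 months 4710, 8590 and 11847 CPM (log2FC −0.06, SE 0.21, edgeR adjusted p = 0.919, or 0.12 without mouse 2).

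The remaining 5p arms were at log2FC 0.16 (SE 0.20) for miR-29a-5p, −0.31 (SE 0.23) for miR-29b-1-5p and −0.18 (SE 0.32) for miR-29b-2-5p, with edgeR adjusted p between 0.537 and 0.817. Without mouse 2 they were at 0.25 (SE 0.22), −0.21 (SE 0.26) and 0.03 (SE 0.34). In all, 0 of 7 members were called with age in wild-type mice, where 0.152% of 660 miRNAs (1 miRNA) were called by edgeR, 15 by DESeq2, and 102 had an unadjusted p under 0.05. The marker lists of oligodendrocytes, choroid plexus, microglia, neurons, red blood cells, vessels and heart muscle had no member called in this comparison. At 2-fold changes, simulated data for it recovered 76.6% of changed miRNAs. These data were drawn independently for each miRNA and held no relation to depth.

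The mir-29c arm ratio of wild-type mice was higher at 6 months by 1.15 (SE 0.39, 95% interval 0.34 to 1.96), seventh highest of 216 hairpins, and did not pass the adjustment (limma, p = 0.00771, adjusted p = 0.244). All 15 mice of 6 months were above the 3-month mean and 8 above the highest 3-month mouse. The ratio was −2.15, −0.49 and −0.74 in mice 2, 3 and 4 of 3 months, which had the deeper libraries, and 0.38 and 0.21 in mice 1 and 5. Without mouse 2 the difference was 0.75 (SE 0.37, limma adjusted p = 0.657), and the others were at 0.13 for mir-29a, −0.05 for mir-29b-1 and 0.13 for mir-29b-2. With all mice the other ratios differed by 0.20 (SE 0.18) in mir-29a, 0.14 (SE 0.44) in mir-29b-1 and 0.22 (SE 0.41) in mir-29b-2, with limma adjusted p of 0.682 to 0.904. No hairpin of 216 was called by limma (0.0%), and 28 had an unadjusted p under 0.05. The edgeR fit to both arms called 0 as well.

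**Figure D5:**
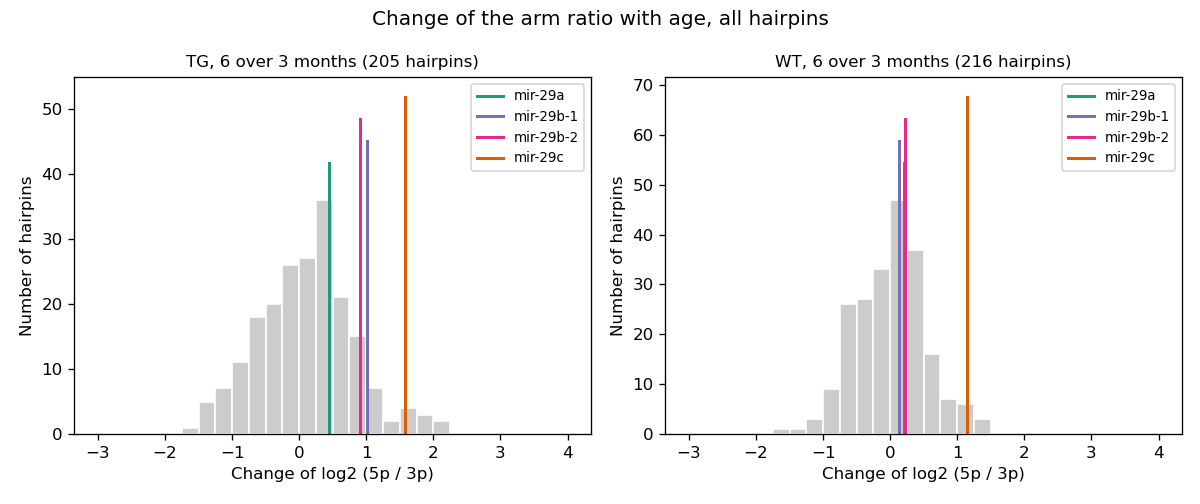
Change in arm ratio, log2(5p/3p), from 3 to 6 months for all hairpins with both arms past the count filter, in TG mice (205 hairpins) and wild-type mice (216 hairpins), with the 4 miR-29 hairpins marked by lines whose heights carry no value. In wild-type mice the lines of mir-29a (0.20) and mir-29b-2 (0.22) lie on each other. mir-29c is the seventh highest in both, at 1.58 and 1.15.

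The genotypes were then compared at each age. These comparisons use the same libraries as the age comparisons, so their values are not independent of those above. At 3 months, TG against wild-type mice gave a log2FC of 0.69 (SE 0.44, 95% interval −0.23 to 1.62) for miR-29b-3p, 0.41 (SE 0.51, interval −0.68 to 1.49) for miR-29c-3p and 0.23 (SE 0.31, interval −0.43 to 0.90) for miR-29a-3p. The 5p arms were between −0.21 and −0.08, with −0.21 (SE 0.23, interval −0.71 to 0.28) for miR-29c-5p. All edgeR adjusted p were 0.998. No member was called, and none of 695 miRNAs was (0.0%, edgeR, with 7 at an unadjusted p under 0.05, and 0 called by DESeq2). Arm ratios were lower in TG mice by −0.84 (SE 0.39) for mir-29b-1 and −0.88 (SE 0.37) for mir-29b-2, and by −0.37 (SE 0.60) for mir-29c and −0.29 (SE 0.25) for mir-29a, all with a limma adjusted p of 0.995. No ratio of 229 was called (0.0%, limma, with 8 at an unadjusted p under 0.05). In simulated data drawn independently for each miRNA, this comparison had little power for ratios. There, 2-fold changes were recovered in 13.9% of hairpins, against 61.5% of miRNA levels.

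Leaving out the libraries over 28000000 counts changed the 3-month comparison most. With 4 TG and 4 wild-type mice left, 21.1% of 608 miRNAs were called, and 2 of 7 members were: miR-29b-2-5p at −1.07 (SE 0.33, edgeR adjusted p = 0.0355) and miR-29c-3p at −0.70 (SE 0.23, edgeR adjusted p = 0.0447). miR-29c-3p was at 29.8 to 40.5 CPM in these TG mice and 51.5 to 58.5 CPM in these wild-type mice, whereas with all libraries its log2FC had the opposite sign. miR-29b-2-5p was at 3.20 to 6.71 against 6.22 to 14.5 CPM, and overlapped. The others were at −0.32 (SE 0.25) for miR-29a-3p, 0.19 (SE 0.32) for miR-29b-3p and −0.21 (SE 0.31) for miR-29c-5p, with edgeR adjusted p of 0.334 to 0.671. The mir-29c arm ratio turned to 0.49 (SE 0.35), and those of mir-29b-1, mir-29b-2 and mir-29a were at −0.64 (SE 0.46), −1.12 (SE 0.50) and −0.15 (SE 0.35). No miR-29 arm ratio was called in that set, against 20.8% of 197 hairpins. One of those 4 wild-type mice, mouse 1, had the genotype field TG.

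At 6 months, where no library exceeded 28000000 counts, TG and wild-type mice were close for all 7 members. The log2FC lay between −0.14 (miR-29b-2-5p, SE 0.25) and 0.12 (miR-29b-1-5p, SE 0.19), with edgeR adjusted p of 0.992 to 0.999. For miR-29c-5p it was −0.01 (SE 0.12, 95% interval −0.26 to 0.23), for miR-29a-3p 0.04 (SE 0.14, interval −0.25 to 0.33), for miR-29b-3p −0.07 (SE 0.29, interval −0.65 to 0.52) and for miR-29c-3p −0.09 (SE 0.23, interval −0.57 to 0.39). Arm ratios differed by −0.19 (mir-29b-2, SE 0.29) to 0.06 (mir-29c, SE 0.28), with a limma adjusted p of 0.999. None of 612 miRNAs (0.0%, edgeR, 3 at an unadjusted p under 0.05, 0 by DESeq2) and none of 201 hairpins (0.0%, limma, 7 at an unadjusted p under 0.05) was called. Simulated 2-fold changes, in counts drawn independently for each miRNA, were recovered here in 93.3% of miRNAs and 81.4% of ratios.

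Whether the change with age differed between genotypes was tested as an interaction. No miR-29 member passed the test: miR-29b-3p was at −0.77 (SE 0.52, 95% interval −1.82 to 0.28), miR-29c-3p at −0.50 (SE 0.50, interval −1.52 to 0.51) and miR-29c-5p at 0.18 (SE 0.23, interval −0.28 to 0.64), with edgeR adjusted p of 0.986, and the other 4 lay between −0.20 and 0.30. The arm ratios were at 0.43 (SE 0.60) for mir-29c, 0.87 (SE 0.54) for mir-29b-1, 0.70 (SE 0.49) for mir-29b-2 and 0.25 (SE 0.28) for mir-29a, with a limma adjusted p of 0.978. The intervals are wide, and the higher miR-29c-5p level at 6 months was not shown to differ between TG and wild-type mice. No interaction was called in 699 miRNAs (0.0%, edgeR, 14 at an unadjusted p under 0.05, 0 by DESeq2) or 228 hairpins (0.0%, limma, 7 at an unadjusted p under 0.05). Without the libraries over 28000000 counts miR-29c-3p was at 0.53 (SE 0.44, edgeR adjusted p = 0.536), the opposite sign, miR-29b-3p at −0.33 (SE 0.57) and miR-29c-5p at 0.14 (SE 0.28). The mir-29c arm ratio then also took the opposite sign, at −0.42 (SE 0.54), while mir-29b-1 was at 0.68 (SE 0.65), mir-29b-2 at 0.93 (SE 0.61) and mir-29a at 0.11 (SE 0.35).

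Within groups the members did not move alike from library to library. Over the 40 libraries, with group means subtracted, miR-29c-3p followed miR-29a-3p (Spearman's rho 0.90), miR-29b-2-5p (0.86) and miR-29b-3p (0.82), while miR-29c-5p had a rho of −0.15 with miR-29c-3p from its own hairpin and −0.08 with miR-29a-3p. These libraries share depth differences, and the rho are given as a description. Outside the family, the miRNAs with the most similar deviations among 356 compared were miR-137-3p (0.95) and miR-30b-5p (0.95) for miR-29c-3p, miR-376a-3p (0.95) and miR-15a-5p (0.90) for miR-29b-3p, miR-15a-5p (0.93) and miR-384-5p (0.93) for miR-29a-3p, and miR-17-5p (0.89) and miR-339-5p (0.89) for miR-29b-2-5p. miR-29c-5p had no neighbour of that closeness, the nearest being miR-24-1-5p (0.64) and miR-7689-3p (0.63). Without the 6 libraries over 28000000 counts, miR-29c-5p and miR-29c-3p had a rho of −0.04, and the rho with these neighbours were 0.94 and 0.93 for miR-29c-3p and 0.64 and 0.62 for miR-29c-5p.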

How the data were processed

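Small RNA libraries of CA1 tissue were sequenced for 40 mice. As described by the authors, reads were processed with the mapper and quantifier of mirdeep2 (bowtie, mm10, miRBase). Versions named in the submitters' processing notes are cutadapt 2.8, bcl2fastq 2.20.2 and FastQC 0.11.5. The deposited table, made by the authors, holds raw counts for 2128 pairs of mature miRNA and precursor, counts of 52 spike-ins, and RPM values, which equal the counts scaled by the library total to within 0.005. RPM served only for an alternative. For 85 mature miRNAs listed with several precursors, the precursor with the highest total was used. miRNAs with low counts were removed (filterByExpr, minimum count 10, minimum total 15).

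Groups followed the sample titles. Levels are TMM-scaled CPM over 40 libraries. Each comparison was fitted over all miRNAs with edgeR 4.0.16 (quasi-likelihood, TMM, robust, R 4.3.3), and p-values were adjusted by Benjamini-Hochberg. A miRNA was called when |log2FC| exceeded 0.26 at an adjusted p under 0.05. Arm ratios, log2 of (5p + 0.5)/(3p + 0.5), were fitted over all hairpins with both arms past the filter with limma 3.58.1 (trend, robust). Intervals are 95% and based on the fits' degrees of freedom. Correlations with depth used 100000 permutations within groups (scipy 1.17.1). p-values measure the spread between mice. The authors used DESeq2 after RUVSeq with factors not given in the sources used here, so DESeq2 1.42.0 and factor models written from their published definitions were alternatives.

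Named miRNAs were all 7 members, their 4 hairpins, marker lists, and the 2 miRNAs most like each member of at least 10 CPM. Members, lists and tests were chosen with earlier results of these data known. The limits of 10000000 and 28000000 counts were set after the data were seen. On simulated counts with 2-fold changes for age in TG mice, 78.2% of changed miRNAs were recovered and 4.94% of calls were false. In all simulations each miRNA was drawn independently, without the relation to depth seen in the data. The recovery and false-call values therefore hold for such independent counts and do not cover differences shared between miRNAs. Sequences came from RefSeq (GRCm38.p6).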

Additional observations from a re-analysis of the deposited data

Results flagged for a closer look

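Of 22 sets of values tested, each a member or arm ratio in 1 group of mice, 3 held a value far from the rest. Chance marks about 1 in 20 such sets, but the sets are not independent, and 2 of the 3 values are from the same mouse. For miR-29b-3p the gap to the next mouse was 0.7102 of the range, barely past the limit of 0.71. Wild-type mouse 2 of 3 months was the highest of 5 for miR-29c-3p at 154 CPM, where the other 4 lay between 51.5 and 58.5 CPM, and for miR-29b-3p at 1638 CPM, where the other 4 lay between 503 and 832 CPM. It is 1 of the 6 libraries over 28000000 counts, and its genotype field reads TG. TG mouse 8 of 3 months was the highest of 9 for miR-29c-5p at 66.4 CPM. It had the smallest total of its group, 13200774 counts. TG mouse 3 of 3 months, with a similar total of 13377760 counts, was the lowest of 9 at 32.2 CPM.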

How the results depend on the processing

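In TG mice the higher miR-29c-5p level at 6 months kept its sign in 26 of 26 alternatives (log2FC of 0.79 or more), which describes the values the family was chosen on and is no independent support. Several other TG values depended on the processing, and the cause was not tested. miR-29a-3p turned to 0.12 and 0.15 with 1 or 2 spike-in factors, 0.17 with the library total as a covariate, 0.44 in libraries under 28000000 counts and 0.54 in those of 10000000 to 28000000. miR-29b-2-5p turned to 0.57 with 2 spike-in factors and 1.03 in libraries of 10000000 to 28000000, and miR-29c-3p to 0.10, 0.64 and 0.77 with 2 spike-in factors and in the libraries under 28000000 and of 10000000 to 28000000. The number of members called was 1 with limma on log2(RPM + 1) or log2(RPM + 0.1), with the covariate and under 28000000, 3 with DESeq2, with residual factors in either tool and without TG mouse 3 of 3 months (the third being miR-29c-3p, −0.94 with DESeq2 and −0.99 without mouse 3), and 4 at 10000000 to 28000000. Called arm ratios were 0 with the covariate and in both sets below 28000000, 1 in libraries of at least 10000000, and 1 to 3 when single mice were left out (1 without TG mouse 2 or 5 of 3 months).

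In wild-type mice miR-29c-3p with age turned to 0.030 and 0.070 with 1 or 2 spike-in factors, 0.039 with the covariate, 0.073 under 28000000, 0.21 at 10000000 to 28000000, and 0.037 with mice 1 and 2 left out or counted as TG. Leaving out single 3-month mice gave −0.51 (without mouse 1) to 0.073 (without mouse 2). Members called were 1 with DESeq2 or edgeR with 1 residual (RUVr) factor, 2 with DESeq2 and 2 RUVr factors, and 0 to 1 when single mice were left out (1, miR-29c-5p, without mouse 1 at 0.88 or mouse 5 at 0.87 of 3 months). For genotype at 3 months miR-29c-3p turned to −0.70 and 2 members were called in both sets below 28000000. In the interaction miR-29c-3p turned to 0.53 and 0.56 in these sets. The mir-29c arm ratio, below its SE with all libraries, changed sign in both comparisons (0.49 for genotype at 3 months in both sets, −0.42 and −0.41 for the interaction). The remaining alternatives gave no other change of a call in the genotype and interaction comparisons of the members.

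Replicate numbers were tried as a replicate block. Same-numbered mice are not stated to be related, so the numbers were not taken as pairs. Their deviations correlated above 0.1 in 7 of 9 pairs for age in TG mice and 2 of 5 for age in wild-type mice. The same held in 2 of 5 pairs for genotype at 3 months, 9 of 11 for genotype at 6 months and 28 of 44 over all groups. With the block, 4 members (miR-29b-3p −1.10, miR-29b-2-5p −0.95, miR-29c-3p −1.02, miR-29c-5p 0.79) and 1 arm ratio (mir-29c, 1.82) were called with age in wild-type mice, where 250 of 660 miRNAs and 74 of 216 hairpins were called. In TG mice miR-29b-3p (−1.15) and miR-29c-5p (0.89) and 3 arm ratios were called with it.

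Counts of called miRNAs moved widely. Totals for the fits that left out single mice are not given here, so calls of members in those fits stand without a background share. For age in TG mice 99 became 142 with DESeq2, 297 or 321 with residual factors, 177 or 199 with spike-in factors and 179 at 10000000 to 28000000. The 33 called arm ratios became 15 with the covariate and 22 under 28000000. For age in wild-type mice 1 became 15 with DESeq2, 171 or 213 with residual factors, 2 with spike-in factors, and 0 with limma, with the covariate and under 28000000. For genotype at 3 months 0 became 128 without the deepest libraries and 54 with DESeq2 and 2 residual factors. For genotype at 6 months 0 became 3 or 8 with 1 or 2 residual factors, and for the interaction 0 became 3 with 2 residual factors and 2 arm ratios were called at 10000000 to 28000000. Depth limits miR-29b-1-5p, with 2 to 82 counts per library, most.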
